A study of Mus musculus with 16 samples.

Results

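The miR-320 family on this array comprised 5 human miRNAs, listed as hsa-miR-320a, hsa-miR-320b, hsa-miR-320c, hsa-miR-320d and hsa-miR-320e and written below without the species prefix. They were taken by name: 9 human miRNA names on the array begin with the characters of miR-320, and the other 4 (miR-3200-3p, miR-3200-5p, miR-3201 and miR-3202) belong to unrelated miRNAs and were left out. The 5 members stand among 1205 human miRNAs on the array, and all 5 were among the 283 that were bright enough to be tested. Their extracellular levels were followed across X-ray doses.

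The RNA came from the culture supernatant of HCT116, an established human colorectal carcinoma line. Cultures received 0, 2, 6 or 10 Gy of X-rays at the higher dose rate the labels name, and supernatant was taken after 72 h in RPMI1640 with 10% FBS. Each dose had 4 cultures, which the series' design text calls independent, and each culture gave 1 single-colour array. That text lists 0, 6 and 10 Gy only, and it and the labels give the organism as mouse, although HCT116 is human and the array carries human miRNA probes; the values were read as human. The serum in the medium carries bovine miRNAs, many of which are identical to human ones, and no array of medium alone was used here. In RNA from the supernatant of a whole culture, fewer releasing cells and less RNA released per cell cannot be told apart. Each array was labelled from 100 ng of RNA and scaled, so a level is relative to the other signals on its array. It does not give the amount released.

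Most miRNAs are cut from a long primary transcript in the nucleus by the enzyme DROSHA with its partner DGCR8, leave the nucleus through Exportin-5 and are trimmed to the mature form by DICER. The precursor of miR-320a is known as an exception: its hairpin is transcribed with its own capped end, is exported through Exportin-1 and reaches DICER without being cut by DROSHA. Members of the family have closely related mature sequences that share their 5′ part and differ mainly toward the 3′ end, and miR-320 species are among those often reported in extracellular fluids. These arrays measured mature miRNAs and hold no measure of how each was made, so independence of DROSHA was not tested here. No human miRNA sequence table was used here, so no sequence is shown. A probe for one member may also bind another closely related member, and that share was not tested.

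Each level below is the log2 of an array's background-subtracted fluorescence for one miRNA, divided by the 75th percentile, on that array, of the 518 probes that every array detected. A level can be compared between arrays for 1 miRNA but not between miRNAs, since probes differ in brightness. All arrays of 0 and 2 Gy lay on one slide and all arrays of 6 and 10 Gy on another, so for 6 or 10 Gy against 0 Gy dose and slide cannot be told apart, whereas 2 against 0 Gy and 10 against 6 Gy are comparisons within a slide. Between 242 and 358 human miRNAs were detected per array. The labelling spike-ins, which are synthetic RNAs added before labelling, varied widely: both were undetected on the arrays of 0 Gy culture 3 and 6 Gy culture 4, and they were within the scanner software's own range on 3 of the 16 arrays. Of 8 miRNAs typical of colorectal epithelium, 5 were detected on at least 1 array: miR-200c-3p and miR-141-3p each on 15, miR-200b-3p on 8, miR-429 on 6 and miR-200a-3p on 4. The other 3 (miR-192-5p, miR-194-5p and miR-215-5p) were detected on 0 arrays. Of 4 red blood cell miRNAs, miR-486-5p was detected on 16 arrays and miR-16-5p on 4, while miR-451a and miR-144-3p were detected on 0. None of the 4 white blood cell and platelet miRNAs was detected. Of the 2 liver miRNAs, miR-122-5p was detected on 4 arrays and miR-885-5p on 1.

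All 5 members were detected with both of their probes on all 16 arrays, and no spot was saturated. Before scaling, mean fluorescence over the arrays ran from 406 to 1033 units for miR-320a, from 455 to 1512 for miR-320b, from 4079 to 16675 for miR-320c, from 188 to 1626 for miR-320d and from 143 to 1158 for miR-320e. The members therefore had a measured value on every array, with no value at the floor.

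miR-320d and miR-320e varied most within the family. Unirradiated cultures 1 to 4 held miR-320d at 0.33, 1.23, -0.41 and 0.85, and the 2 Gy cultures at -0.45, 0.51, -0.60 and -0.53. Its 6 Gy levels were -0.91, -0.10, -0.64 and -1.80, and its 10 Gy levels 0.06, 0.44, 0.20 and 0.04. At 0 Gy 3 of the 4 cultures were above 0 and culture 3 was below it, at 2 Gy only culture 2 was above 0, and at 6 Gy every culture was below 0 with culture 4 the lowest of all 16. The 0 Gy values overlapped those of each irradiated dose (over all tested miRNAs, 11.3% did not overlap at 2 Gy, 9.19% at 6 Gy and 15.2% at 10 Gy). All 10 Gy values lay above the 6 Gy values, a pair of doses between which 10.6% of all tested miRNAs did not overlap. In order of dose, the means of miR-320d were 0.50 ± 0.71, -0.27 ± 0.52, -0.87 ± 0.71 and 0.18 ± 0.19 (SD, n = 4 each).

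miR-320e, whose mature form is known to begin slightly later than that of its relatives, followed the same order of arrays. Its levels were -0.11, 0.66, -0.81 and 0.27 in the 4 cultures at 0 Gy and -1.05, -0.07, -1.13 and -1.11 at 2 Gy. They were -1.37, -0.66, -1.14 and -2.22 at 6 Gy and -0.48, -0.07, -0.31 and -0.50 at 10 Gy. Culture 3 was again the low one at 0 Gy, culture 2 the high one at 2 Gy and culture 4 the low one at 6 Gy. Again only the 6 and 10 Gy values did not overlap, as for 10.6% of all tested miRNAs. Culture 2 had the highest level of its dose at all 4 doses for both miR-320d and miR-320e. In order of dose, the means of miR-320e were 0.0049 ± 0.63, -0.84 ± 0.51, -1.35 ± 0.65 and -0.34 ± 0.20 (SD, n = 4 each).

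**Figure D1:**
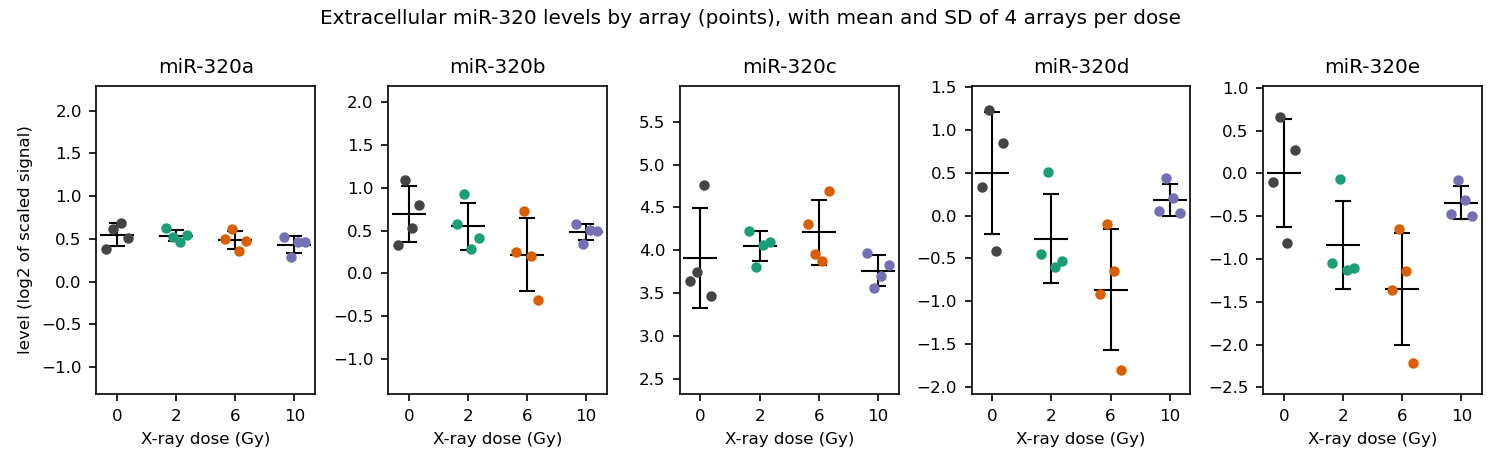
Level of each miR-320 member (log2 of scaled signal, vertical axis) by X-ray dose in Gy, with 1 point per array and the mean and SD of 4 arrays; the panels span the same number of log2 units, centred on each member. miR-320a lies almost flat from 0.29 to 0.68, while miR-320d and miR-320e spread over 3.04 and 2.88 log2 units, with their lowest array at 6 Gy.

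At 6 Gy against 0 Gy, miR-320d was lower by 1.37 on the log2 scale (-1.37 ± 0.38, SE), which is 2.58-fold, and passed the limma test with a Benjamini-Hochberg adjusted p of 0.0353 over all 283 miRNAs. miR-320e differed by -1.35 ± 0.35 (SE), 2.55-fold, with an adjusted p of 0.0341 in the same test. These were 2 of the 5 members, both lower, in a comparison in which 19.4% of all tested miRNAs were called, 13.4% as lower and 6.01% as higher; 0 members were called as higher. They ranked 28 and 29 among the 283 counted from the most negative difference. The median difference was -0.47 over the 5 members and 0.12 over all miRNAs tested.

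The 6 Gy calls rested on narrow margins. Leaving out any one of 9 arrays took the adjusted p of miR-320d past 0.05, to between 0.0502 and 0.0903 in limma: 0 Gy cultures 1, 2 and 4, 2 Gy culture 1, 6 Gy cultures 1, 3 and 4, and 10 Gy cultures 1 and 3. For miR-320e it was any one of 7 arrays, the same ones except 6 Gy culture 3 and 10 Gy culture 1, with an adjusted p of 0.0502 to 0.0895. Of all 283 miRNAs, 0 were called without 0 Gy culture 1, 2 or 4 or without 6 Gy culture 1 or 4. Leaving out 2 Gy culture 1 or 10 Gy culture 3 left 11 called, 10 Gy culture 1 left 17 and 6 Gy culture 3 left 19. Over the 16 fits that left out 1 array each, the differences stayed between -1.67 and -1.05 for miR-320d and between -1.62 and -1.06 for miR-320e. Without 0 Gy culture 3 and 6 Gy culture 4 together, the arrays with undetected spike-ins, miR-320d differed by -1.36 (adjusted p = 0.0068 in limma) and miR-320e by -1.33 (adjusted p = 0.0066). That fit called 135 of all 283 miRNAs. With only the 8 arrays of the 0 and 6 Gy doses in the fit, the sizes were the same as with all arrays. The adjusted p was then 0.144 for each in limma, and 0 of all 283 miRNAs were called.

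At 2 Gy against 0 Gy, miR-320d differed by -0.77 ± 0.38 (SE; 95% interval -1.58 to 0.04) and miR-320e by -0.84 ± 0.35 (95% interval -1.59 to -0.09), with limma adjusted p of 0.157 and 0.109. None of the 5 members was called, against 12.7% of all tested miRNAs (6.71% as lower and 6.01% as higher), and 1 of the 5 (miR-320e) had an unadjusted p under 0.05, as did 99 of all 283. Without 0 Gy culture 3, both were called, miR-320d at -1.08 (adjusted p = 0.0283 in limma) and miR-320e at -1.12 (adjusted p = 0.0180). That fit called 121 of all 283 miRNAs. Without 2 Gy culture 2, miR-320e was called at -1.10 (adjusted p = 0.0329 in limma), as were 87 of all 283 miRNAs. Both comparisons with 0 Gy share the same 0 Gy arrays.

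At 10 Gy against 0 Gy, the differences were smaller, -0.32 ± 0.38 (SE; 95% interval -1.13 to 0.50) for miR-320d and -0.35 ± 0.35 (95% interval -1.10 to 0.41) for miR-320e. The limma adjusted p was 0.618 and 0.568. None of the members was called, as for all but 0.353% of the miRNAs tested, and 0 members had an unadjusted p under 0.05, against 63 of all 283. Leaving out 0 Gy culture 3 gave -0.62 for each, and leaving out 0 Gy culture 2 gave -0.07 for miR-320d and -0.13 for miR-320e. These were the ends of the range over single arrays left out, and none of them was called. Of all 283 miRNAs, 43 were called without 0 Gy culture 3 and 11 without 0 Gy culture 2.

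Within the second slide, 10 Gy against 6 Gy gave the opposite sign. miR-320d was higher at 10 Gy by 1.05 ± 0.38 (SE) and miR-320e by 1.01 ± 0.35, with unadjusted p of 0.0149 and 0.0123 and a limma adjusted p of 0.321 for each. These were the 2 members whose arrays did not overlap between the doses, against 10.6% of all tested miRNAs. No member was called, and 0% of all miRNAs were; 42 of the 283 had an unadjusted p under 0.05. A straight line over dose was also fitted: the slopes were between -0.01 and -0.03 per Gy for all 5, with limma adjusted p of 0.603 to 0.898. No member was called on the slope or had an unadjusted p under 0.05, and 0% of all miRNAs were called (36 had an unadjusted p under 0.05).

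**Figure D2:**
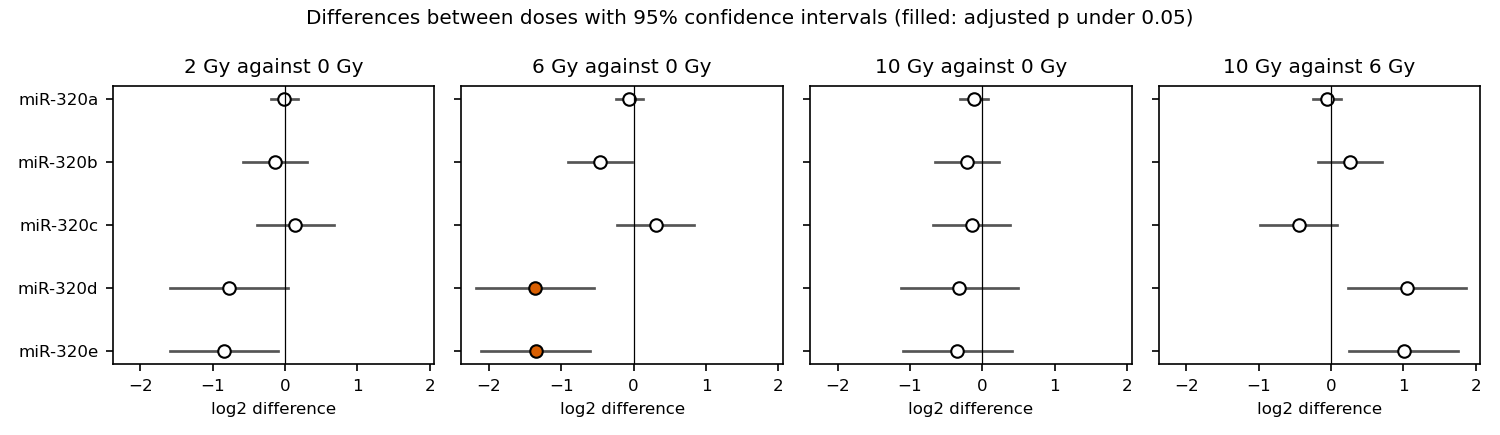
Difference in log2 level between 2 doses (horizontal axis) for each member, as limma estimates with 95% confidence intervals and 1 panel per comparison; filled points have an adjusted p under 0.05. The 2 filled points are miR-320d (-1.37) and miR-320e (-1.35) at 6 Gy against 0 Gy, and the same members lie at 1.05 and 1.01 at 10 Gy against 6 Gy.

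miR-320b is known to differ from miR-320a near its 3′ end. Its levels were 0.34, 1.09, 0.53 and 0.81 at 0 Gy, 0.58, 0.93, 0.28 and 0.42 at 2 Gy, 0.25, 0.73, 0.21 and -0.31 at 6 Gy, and 0.58, 0.35, 0.51 and 0.50 at 10 Gy. 6 Gy culture 4 was the lowest array, as for miR-320d and miR-320e, and the values of every pair of doses overlapped. At 6 Gy against 0 Gy miR-320b differed by -0.47 ± 0.21 (SE), with a 95% interval of -0.91 to -0.03 and a limma adjusted p of 0.0964. Without 6 Gy culture 2 the difference was -0.64 and was called (adjusted p = 0.0373 in limma), in a fit that called 78 of all 283 miRNAs. In the other comparisons it was -0.14 at 2 Gy, -0.21 at 10 Gy and 0.26 at 10 against 6 Gy, with limma adjusted p of 0.645, 0.558 and 0.417.

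miR-320c had another pattern. Its levels were 3.64, 3.74, 4.77 and 3.47 at 0 Gy, 4.23, 3.81, 4.06 and 4.10 at 2 Gy, 4.30, 3.96, 3.87 and 4.70 at 6 Gy, and 3.97, 3.55, 3.70 and 3.82 at 10 Gy. The highest were 0 Gy culture 3 and 6 Gy culture 4, where miR-320d and miR-320e had the lowest level of their dose, and the values of every pair of doses overlapped. It differed by 0.14 ± 0.25 (SE) at 2 Gy, 0.30 ± 0.25 at 6 Gy and -0.14 ± 0.25 at 10 Gy against 0 Gy, and by -0.45 ± 0.25 at 10 against 6 Gy, with limma adjusted p of 0.697, 0.334, 0.745 and 0.326. Without 0 Gy culture 3 it was higher at 6 Gy by 0.59 and was called (adjusted p = 0.0151 in limma), as were 143 of all 283 miRNAs. Without that array and 6 Gy culture 4 together miR-320c was called as higher at 2 Gy (0.43, adjusted p = 0.0215 in limma) and at 6 Gy (0.43, adjusted p = 0.0304). Of all 283 miRNAs, 137 were called at 2 Gy and 135 at 6 Gy in that fit.

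miR-320a, the member for which the DROSHA-independent route is best described, was the steadiest. Its levels were 0.38, 0.62, 0.68 and 0.51 at 0 Gy, 0.62, 0.52, 0.47 and 0.55 at 2 Gy, 0.50, 0.61, 0.36 and 0.47 at 6 Gy, and 0.52, 0.29, 0.46 and 0.46 at 10 Gy. All 4 doses overlapped. The differences from 0 Gy were -0.01 ± 0.09 (SE), -0.06 ± 0.09 and -0.11 ± 0.09 at 2, 6 and 10 Gy, and the 95% interval at 6 Gy ran from -0.25 to 0.13. Their sign depended on the scaling: with the 75th percentile taken over all probes they were 0.38, 0.32 and 0.09, and that at 2 Gy was called (adjusted p = 0.0344 in limma). With that scaling 129 of all 283 miRNAs were called at 2 Gy. Under the main scaling miR-320a was not called at any dose. The SD of miR-320a over the 16 arrays was 0.10, rank 279 of 283 counted from the most variable miRNA, against ranks of 100 for miR-320b, 79 for miR-320c, 35 for miR-320d and 39 for miR-320e. Within doses the SD was 0.10 for miR-320a, 0.30 for miR-320b, 0.37 for miR-320c, 0.57 for miR-320d and 0.53 for miR-320e, beside a median of 0.23 over all tested miRNAs.

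The steady mean of miR-320a came from 2 probes that did not move together. Over the 16 arrays its probes correlated at r = -0.27, and at 6 Gy against 0 Gy the dimmer differed by 0.15 and the brighter by -0.28. The probe pairs of the other members correlated at r = 0.94 for miR-320b, 0.98 for miR-320c, 0.99 for miR-320d and 0.98 for miR-320e. Both probes of miR-320d were lower at 6 Gy than at 0 Gy on average, by a difference of -1.15 for the dimmer and -1.59 for the brighter. For miR-320e the differences were -1.13 and -1.57. The probes of miR-320a also differed in sign at 2 Gy against 0 Gy and at 10 against 6 Gy. Both miR-320a probes were negative at 10 Gy against 0 Gy (-0.04 and -0.19).

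Levels of miR-320c, miR-320d and miR-320e moved with the labelling spike-ins. The relation to the spike-in was computed for the family members and their probes only. How many of the other miRNAs follow it was not tested, so it cannot be read as particular to the family. The closest miRNAs outside the family were miR-198 for miR-320c (r = 0.98), and let-7b-5p and let-7c-5p for miR-320d and miR-320e (r = 0.97 in each pair). The spike-in signal, as the log2 of the scanner software's metric averaged over both spike-ins, was 10.10, 8.30, -2.32 and 9.31 at 0 Gy, 1.02, 6.97, 6.40 and 4.88 at 2 Gy, 1.67, 5.50, 5.95 and -2.32 at 6 Gy, and 6.85, 9.02, 7.58 and 6.06 at 10 Gy. The value -2.32 is what the software writes for spike-ins it did not detect. The dose means were 6.35 ± 5.83, 4.82 ± 2.68, 2.70 ± 3.86 and 7.38 ± 1.26 (SD, n = 4 each), lowest at 6 Gy, where miR-320d and miR-320e were also lowest.

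Across the 16 arrays miR-320c correlated with the spike-in at r = -0.97 (permutation p = 1e-05, the smallest that 100000 resamples can give, adjusted p = 5e-05 over the 5 members) and rho = -0.94 (permutation p = 1e-05, adjusted p = 5e-05). Dropping the 2 arrays whose spike-ins were undetected, which are also the farthest from the median spike-in, gave -0.91, and r was -0.96 on the first slide and -0.98 on the second (exact p = 0.000124 and 0.000471, n = 8 each). The opposite sign held for miR-320d, with r = 0.77 (permutation p = 0.00036, adjusted p = 0.000867) and rho = 0.82 (permutation p = 0.00026, adjusted p = 0.000433). For miR-320d r was 0.75 without those 2 arrays, 0.65 on the first slide (exact p = 0.0803, n = 8) and 0.96 on the second (exact p = 0.000298, n = 8).

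miR-320e gave r = 0.77 (permutation p = 0.00052, adjusted p = 0.000867) and rho = 0.82 (permutation p = 0.00019, adjusted p = 0.000433), with 0.77 without those 2 arrays, 0.64 on the first slide (exact p = 0.0927, n = 8) and 0.96 on the second (exact p = 0.000273, n = 8). On the first slide alone the relation of miR-320d and of miR-320e to the spike-in thus missed 0.05. miR-320b gave r = 0.46 (permutation p = 0.0763, adjusted p = 0.0763) and miR-320a r = -0.48 (permutation p = 0.0604, adjusted p = 0.0755). By slide, miR-320b gave 0.21 on the first (exact p = 0.618, n = 8) and 0.76 on the second (exact p = 0.0391, adjusted p = 0.0489, n = 8). For miR-320a r was -0.77 on the first slide (exact p = 0.0247, adjusted p = 0.0616, n = 8) and -0.33 on the second (exact p = 0.42, n = 8). The dimmer probe of miR-320a alone gave r = -0.92 (permutation p = 1e-05, adjusted p = 3.33e-05 over the 10 probes) and the brighter 0.28 (permutation p = 0.291).

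With the spike-in as a covariate in limma, the 6 Gy difference from 0 Gy was -0.95 for miR-320d and -0.96 for miR-320e (adjusted p = 0.0480 for each), and that of miR-320c was -0.04 (adjusted p = 0.806). The covariate held -2.32 for 0 Gy culture 3 and 6 Gy culture 4, where no spike-in was detected. These arrays lie farthest from its median, so the adjustment leans on them. This fit called 29 of all 283 miRNAs at 6 Gy and 74 at 2 Gy against 0 Gy. In the same fit the 2 Gy difference of miR-320e was -0.68 and narrowly passed the threshold, with an adjusted p that rounds to 0.05, and the 10 Gy against 6 Gy differences were 0.51 for both miR-320d and miR-320e (adjusted p = 0.841 for each). The part of the labelling reaction in these differences was not tested beyond this fit.

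**Figure D3:**
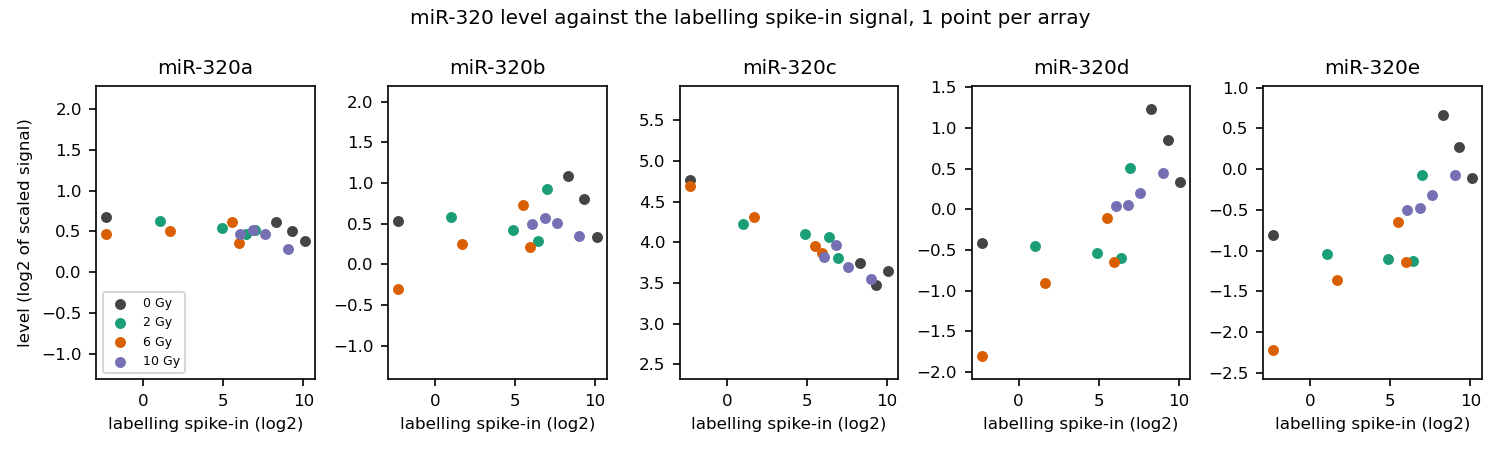
Level of each member (log2 of scaled signal, vertical axis) against the labelling spike-in signal (log2 of the scanner software's metric, horizontal axis), with 1 point per array coloured by dose. miR-320c lies along a falling line (r = -0.97) and miR-320d and miR-320e along rising ones (r = 0.77 each); the 2 leftmost points, at -2.32, are arrays with undetected spike-ins.

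Within the family the arrays fell into the same order for miR-320d and miR-320e, with r = 0.997 and rho = 1.00 over the 16 arrays. miR-320b correlated with them at r = 0.84 and 0.82, and miR-320c at r = -0.79 and -0.77. miR-320a had r = 0.48 with miR-320b, 0.49 with miR-320c and 0.01 with miR-320d. With each dose's mean removed, the pairs gave 0.998 for miR-320d with miR-320e, 0.84 and 0.83 for miR-320b with them, and -0.81 for miR-320c with each. These are descriptions over the 16 arrays. The members on 1 array share its RNA, its labelling and its scaling, and related probes may bind the same molecules.

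Ratios between members within an array do not depend on the scaling of that array. They can still move with the labelling spike-in, which miR-320c and miR-320d followed with opposite signs. The log2 ratio of miR-320d to miR-320c was -5.18 at 0 Gy culture 3 and -6.50 at 6 Gy culture 4. Those arrays had undetected spike-ins, and each value was the lowest of its dose. The part of labelling in the ratios was not tested. The log2 ratio of miR-320e to miR-320d stayed between -0.59 and -0.40 on all 16 arrays, so the pair kept nearly 1 proportion in every culture and dose. The ratio of miR-320d to miR-320a changed by -1.30 from 0 to 6 Gy (exact permutation p = 0.0857) and that to miR-320c by -1.67 (exact permutation p = 0.0857). From 6 to 10 Gy the same ratios were higher by 1.10 and 1.50, and that of miR-320d to miR-320b by 0.79, each with no overlap between the doses.

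For those 3 ratios the exact two-sided permutation p was 0.0286, the smallest that 4 against 4 arrays allow, and the adjusted p over all 40 tests of 10 ratios in 4 comparisons was 0.163. The ratios of miR-320e to miR-320a, miR-320b and miR-320c behaved alike, higher at 10 than at 6 Gy by 1.06, 0.74 and 1.45 with the same exact p and adjusted p. No ratio passed 0.05 after adjustment. These ratios were chosen after the levels had been seen.

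**Figure D4:**
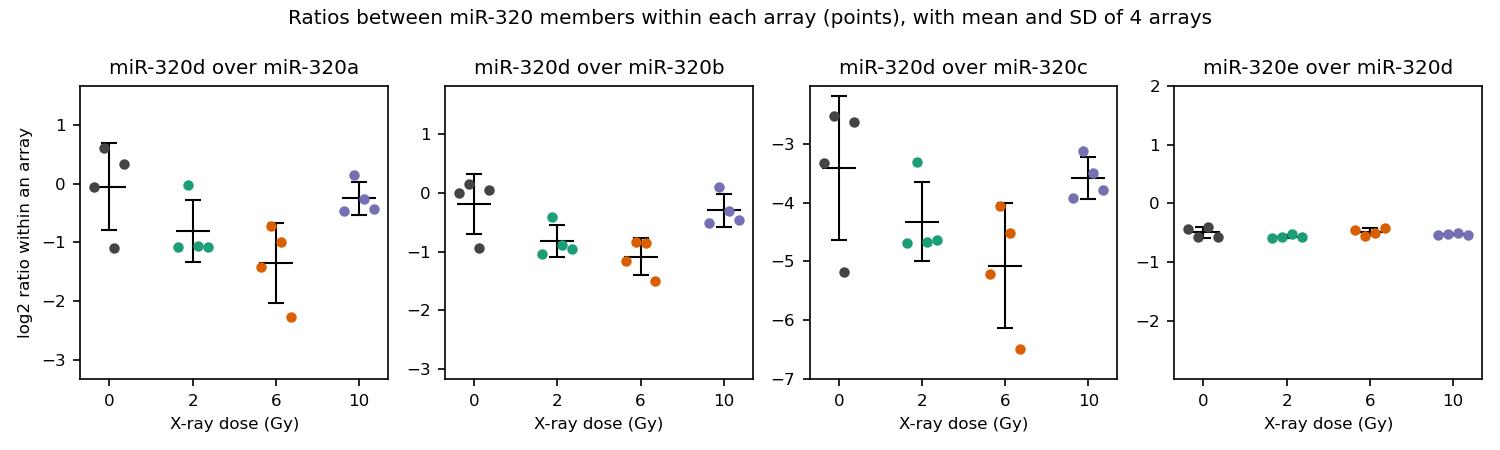
Log2 ratio of miR-320d to miR-320a, miR-320b and miR-320c, and of miR-320e to miR-320d, within each array (vertical axis) by X-ray dose in Gy, with 1 point per array and the mean and SD of 4 arrays. The first 3 ratios are higher at 10 Gy than at 6 Gy without overlap, and the ratio of miR-320e to miR-320d stays between -0.59 and -0.40.

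Among the 278 other miRNAs tested, those whose levels over the 16 arrays were most like the mean of the 5 members were let-7i-5p (r = 0.92), miR-3156-5p (r = 0.92), let-7b-5p (r = 0.91), let-7c-5p (r = 0.91) and miR-210-3p (r = 0.89). The least alike were miR-150-3p (r = -0.88) and miR-3195 (r = -0.85). At 6 Gy against 0 Gy the 5 most alike differed, in the order given, by -1.92, -0.65, -2.24, -2.24 and -2.29. Their limma adjusted p was 0.0353, 0.0734, 0.0407, 0.0407 and 0.0374, where 19.4% of all tested miRNAs were called. At 10 against 6 Gy they differed by 1.17, 0.66, 1.40, 1.49 and 1.44, with a limma adjusted p of 0.321 for each. They were picked on these same arrays, so the values are descriptions. Taken member by member, a choice made after the values were seen, miR-320d and miR-320e were most like let-7b-5p and let-7c-5p (r = 0.97 in each of the 4 pairs), and miR-320c most like miR-198 (r = 0.98) and miR-3915 (r = 0.96). The closest to miR-320b was miR-21-3p (r = 0.85), and the closest to miR-320a was miR-1471 (r = 0.69). Apart from miR-320d and miR-320e, which shared let-7b-5p and let-7c-5p, the members thus had different closest miRNAs. The mean of the 5 members moves most with miR-320d and miR-320e, whose SD over the arrays was largest (0.74 and 0.71).

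Other miRNAs known for routes that bypass DROSHA were read from a list of 28 names, made up of mirtrons, which are released from introns by splicing, and miRNAs with capped or otherwise unusual precursors. Of these, 18 were on the array, 15 were detected on at least 1 array and 14 were tested. At 2 Gy against 0 Gy 2 of the 14 were called, beside the 12.7% of all tested miRNAs, both higher: the mirtron miR-1226-5p by 0.48 (adjusted p = 0.0190 in limma) and the mirtron miR-1224-5p by 0.36 (adjusted p = 0.0333). At 6 Gy 1 of the 14, miR-1226-5p, was called, higher by 0.40 (adjusted p = 0.0341 in limma), beside 19.4% of all, and none was called at 10 Gy against 0 Gy or against 6 Gy, where 3 and 1 of the 14 had an unadjusted p under 0.05 in limma and miR-1226-5p stood at 0.45 against 0 Gy (adjusted p = 0.0530). The 14 had median differences of 0.13, 0.19 and -0.01 at 2, 6 and 10 Gy against 0 Gy, beside 0.03, 0.12 and -0.02 over all tested miRNAs.

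With the 75th percentile taken over all probes, which moved the median of all miRNAs at 6 Gy from 0.12 to 0.47, 8, 10 and 1 of the 14 were called at 2, 6 and 10 Gy against 0 Gy, but so were 129, 177 and 22 of all 283. With no scaling 0 of the 14 and 0 of all 283 were called. miR-484, whose precursor is also known to be capped, differed by -0.24 at 2 Gy (adjusted p = 0.141 in limma) and -0.13 at 6 Gy (adjusted p = 0.340) and was detected on 14 arrays. The mirtron product miR-877-3p differed by -0.36 at 2 Gy (adjusted p = 0.0528 in limma) and 0.12 at 6 Gy. At 6 Gy against 0 Gy, the called members of the miR-320 family were lower and the 1 called mirtron was higher. That 1 of 14 stands beside 6.01% of all tested miRNAs called as higher. Of the 14, 10 differed upward and 4 downward at 6 Gy. Among the latter miR-1228-5p differed by -0.62 (adjusted p = 0.0592 in limma).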

How the data were processed

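Extracellular RNA (100 ng, extracted with ISOGEN and labelled with Cy3, per the labels' protocols) was measured on 16 single-colour Agilent miRNA arrays. The deposited intensity per spot is Agilent's background-subtracted processed signal, per the file headers. Outlier spots (3.33 to 4.94% of spots per array) and control spots were left out, the spots of a probe were averaged, and detection of a probe needed more than a share of 0.5 of its spots flagged as well above background. Signals were divided by each array's 75th percentile over the 518 probes detected on all arrays, floored at 0.0412 and put on the log2 scale; 4.17% of values lay at the floor. A miRNA is the mean of its probes that were detected in every culture of some dose (592 probes, 283 human miRNAs). Doses were compared with limma 3.58.1 in R 4.3.3 (lmFit and eBayes, all 16 arrays, Benjamini-Hochberg over 283, threshold 0.05). The code was tried on simulated data with independent noise for each miRNA. Such data hold no variation shared by the miRNAs of an array, so they do not show the rate of false calls here. Fold changes are on the scaled log2 signal, and the number of arrays limits their precision. The limma p-values weigh a difference against the spread between arrays of a dose. Each culture gave 1 array, so culture, labelling and array cannot be told apart in that spread. Label numbers were not taken to pair cultures: correlations of same-numbered deviations were positive for every pair of number 2 (0.59 to 0.87) but ran from -0.76 to 0.85 over the other numbers. All family members were named; of the DROSHA-bypassing list, those called and the 4 with the smallest F-test p; of the marker lists, those detected; and the 5 most and 2 least alike miRNAs. The members and lists were chosen with earlier results of these data known. Alternatives covered scaling, background correction (normexp on the median signal, as the mean signal was not used here), probe summary, filters, floor, outliers, replicate block, slide row, spike-in and left-out arrays. Figures used Python 3.11.15 and matplotlib 3.10.9.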

Additional observations from a re-analysis of the deposited data

Results flagged for a closer look

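miR-320d and miR-320e each had an array far from the others at 2 Gy, and in both it was culture 2. It stood at 0.51 for miR-320d, and its gap to the next array was 0.866 of the whole range of the 4 arrays. For miR-320e it stood at -0.07, and the gap was 0.921 of the range. Culture 2 was also the highest array of both members at 0, 6 and 10 Gy, and the deviations of the 4 arrays numbered 2 from their dose means correlated at 0.59 to 0.87 over all tested miRNAs. Both ratios were above Dixon's 95% critical value for 4 samples. Chance gives such an array in about 1 in 20 groups, and 20 groups (5 members at 4 doses) were looked at; because miR-320d and miR-320e kept the same order of arrays, they are not independent of each other.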

How the results depend on the processing

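Between 2 and 0 Gy, where 0 members and 36 of all miRNAs were called, 1 member was called with scaling over all probes (miR-320a, 0.38, adjusted p = 0.0344 in limma), 1 with the replicate block, 1 with the spike-in covariate, and 3 without 0 Gy replicate 3 together with either 2 Gy replicate 2 or 6 Gy replicate 4. All miRNAs called were 129 with all-probe scaling (111 higher, 18 lower), 0 without scaling, 19 with normexp, 0 without a detection filter, 68 with the block, 74 with the spike-in, 0 with only the compared doses (69 at an unadjusted p under 0.05 in limma) and, for the 2 left-out pairs, 152 and 137. Between 6 and 0 Gy, where 2 members and 55 miRNAs were called, 0 members were called without scaling (miR-320d -1.12, adjusted p = 0.176; miR-320e -1.10, adjusted p = 0.167), without a detection filter, or with only the compared doses, blocked or not. All miRNAs called were 177 with all-probe scaling (148 higher, 29 lower), 0 without scaling, 34 with normexp, 88 with Agilent's total signal, 35 with detection on all arrays required, 0 without a filter, 29 with the spike-in, 0 with only the compared doses, and 166 and 135 without the pairs. The fit without a filter is unreliable, since most of its values lie at the floor.

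Between 10 and 0 Gy no alternative called a member; all miRNAs called went from 1 to 22 with all-probe scaling, 0 without scaling, 11 with quantile normalization, 0 with normexp or total signal, 9 with the brightest probe, 7 with detection on all arrays required, 3 without a filter, 3 with outlier spots kept, 7 with the block, 59 with the spike-in, 0 with only the compared doses, 70 and 62 without the pairs and 11 with the slide row as a block. Between 10 and 6 Gy, 1 miRNA was called without a filter and 1 with the spike-in; the slope called 1 with the spike-in. The replicate number was not taken to pair cultures (5 of 16 arrays correlated best with their own number); as a block on the compared doses it called 2 members at 10 against 6 Gy (miR-320d, adjusted p = 0.0375, and miR-320e, adjusted p = 0.0340, in limma) and 55 miRNAs there, and 0 miRNAs at 2, 6 or 10 against 0 Gy. Over the 16 fits that left out 1 array each, members called ranged from 0 to 2 at 2 Gy and 0 to 3 at 6 Gy and stayed at 0 for 10 against 0 Gy, 10 against 6 Gy and the slope; all miRNAs called ranged from 0 to 121, 0 to 143 and 0 to 43 at 2, 6 and 10 against 0 Gy.

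Signs turned only for small, uncalled differences apart from miR-320a at 2 Gy under all-probe scaling, which moved the median of all miRNAs from 0.03 to 0.40 at 2 Gy, from 0.12 to 0.47 at 6 Gy and from -0.02 to 0.18 at 10 Gy. miR-320a became positive at 2 Gy with all-probe scaling (0.38), no scaling (0.10), total signal (0.063) and the pairs left out (0.042 and 0.036), at 6 Gy with the first 3 (0.32, 0.19 and 0.032), at 10 Gy with all-probe scaling (0.089) and at 10 against 6 Gy with the brightest probe (0.090) and the spike-in (0.017). miR-320b became 0.25 at 2 Gy with all-probe scaling and -0.23 at 10 against 6 Gy without scaling. miR-320c became -0.039 at 6 Gy with the spike-in, and at 10 Gy 0.059 with all-probe scaling and 0.14 without either pair. Slopes per Gy turned for miR-320a (0.00025) and miR-320c (0.00014) with all-probe scaling and for miR-320c (0.0030) without the first pair. With 1 array left out, miR-320a ran from -0.065 to 0.036 and miR-320c from -0.0017 to 0.43 at 2 Gy, and miR-320c from -0.29 to 0.14 at 10 Gy and from -0.025 to 0.0045 in slope. The causes were not tested. Of the members' results under these alternatives, 375 kept their direction and side of the threshold, 12 newly passed it, 8 no longer passed it and 20 turned sign; with 1 array left out these were 373, 5, 16 and 6. The number of arrays, 4 per dose, limits the precision.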
